A study of Mus musculus and Homo sapiens with 27 samples.

Results

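The solute carriers are membrane proteins that move nutrients, ions, nucleotides and metabolites across the cell surface and across the membranes of organelles. All human genes of the lymphochip whose single symbol begins with SLC and a digit were taken, 49 of 4604 named genes, carried by 90 array features. To these were added 3 of the 331 named mouse genes, Slc3a2, Slc7a5 and Slc35a2, with 2 features each. Members were sorted by family number into substrate groups. The rule uses symbols and no measured value, but it was set with earlier results of these data known. Of 7 named mouse solute carriers it takes only Slc3a2, Slc7a5 and Slc35a2.

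The lymphochip is a spotted cDNA array of lymphocyte genes that is hybridised with 2 dyes. On 23 mouse arrays, RNA of cultured splenic B cells of adult Balb-c mice was set in Cy5 against a Cy3 pool of B-cell, T-cell and monocyte line RNA. Mice were homozygous (KO, -/-) or heterozygous (Het, -/+) for the Irf4 deletion, so the control cells carry it too, and no wild-type cells were compared. Cells were taken unstimulated or after 24, 48 or 96 h with lipopolysaccharide (LPS), which drives B cells to divide and to form plasmablasts. Het had 3, 2, 2 and 4 arrays at 0, 24, 48 and 96 h, and KO had 3 at each time. On 4 human arrays, OCI-Ly7 cells expressing human IRF4 from the Vxy vector (Cy5) were set against OCI-Ly7 cells with the empty Vxypuro vector (Cy3). The arrays were 1 at day 2, 2 at day 3 and 1 at day 5. OCI-Ly7 is a diffuse large B-cell lymphoma line of the germinal centre type, and 1 line stands here for the human response. The design text calls this control non-transduced, and the array labels, which were followed, call it an empty vector.

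SLC3A2 encodes the CD98 heavy chain, a glycoprotein that brings light chains such as SLC7A5 (LAT1) to the cell surface. Together they exchange intracellular glutamine for leucine and other large neutral amino acids, whose supply is sensed by the mTORC1 kinase at the lysosome. Activated lymphocytes and antibody-secreting cells are known for a high demand for amino acids and glucose, and SLC35A2 supplies UDP-galactose to the Golgi, where antibodies and surface proteins are glycosylated.

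Every value below is a log2 ratio, centred on the median of all features of its array. A mouse level of 0 is the level in the pool, and a human level of 0 is the level with the empty vector. The B-cell receptor chain Cd79b had values between 1.97 and 4.05, above 0 on 23 of 23 mouse arrays, the direction of B cells over a mixed pool. Irf4 was not analysed here in the mouse. On the human arrays 1 of 4 IRF4 features lay above 0 on all arrays and the IRF4 mean was -0.03, with 0.67 on day 3 replicate 1 and -0.17 to -0.32 on the other arrays. PRDM1, a plasma cell regulator, lay above 0 on 4 of 4 arrays with a mean of 1.83. The human direction, IRF4 vector over empty vector, is therefore likely at best, and every human sign below would turn if it ran the other way. The design text speaks of biological repeats, but no label ties an array to an animal or a culture, so p-values measure the spread between arrays, which may be technical. The channel fields of 3 arrays contradict their titles, giving Het for the third KO array at 24 h and for the first and the third at 48 h. Their titles were followed. In bulk RNA, fewer cells of a type and less RNA per cell cannot be told apart.

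The promoter of Slc3a2 is printed because Slc3a2 gave the most separated difference between genotypes. RefSeq (GRCm38.p6) places the 250 bases before its start at chr19:8713898-8714147 on the minus strand, read 5′ to 3′ along the gene, with a GC box in capitals.
Slc3a2: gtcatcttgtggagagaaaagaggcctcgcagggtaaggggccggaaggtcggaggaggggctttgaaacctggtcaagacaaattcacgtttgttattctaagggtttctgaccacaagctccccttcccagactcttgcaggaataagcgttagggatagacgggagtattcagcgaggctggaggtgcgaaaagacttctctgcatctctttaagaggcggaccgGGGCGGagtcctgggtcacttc
Both strands were searched for 4 motifs over a window from 250 bases before to 50 after the start. GC boxes (GGGCGG) began at -22 and 14 relative to the Slc3a2 start, and 1 began at 13 in the window of Slc35a2, whose GC content was 62% against 56% for Slc3a2. The GC box is held by 35.7% of 32851 windows of this length. The ETS-IRF composite element (in 2.72% of windows), the interferon-stimulated response element (3.44%) and the E-box (CACGTG, 7.15%) had no match in these letters in either window. Of the 3 mouse genes, 2 matched the promoter table; Slc7a5 is named only.

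KO and Het B cells were compared at each time to ask which RNAs differ with Irf4. By the array titles, Slc3a2, the CD98 heavy chain, lay lower in KO than in Het on every array at 24, 48 and 96 h. Slc7a5, its light chain, did so at 48 and 96 h. Of these separations, that of Slc3a2 at 24 h is lost if the channel fields are followed. Neither gene had a difference past the threshold (limma adjusted p under 0.05 over 331 genes), and Slc35a2 showed no separation of the genotypes at these times. Past the threshold were 0 of 3 members at every time, beside 1.81%, 0%, 0% and 2.72% of all named genes at 0, 24, 48 and 96 h. In the mean of the 3 LPS times it was again 0 of 3, beside 2.42%. At an unadjusted p under 0.05 in limma the members counted 1, 0, 0 and 1 at these times, beside 17.2%, 9.37%, 2.72% and 9.06% of all genes, and 2 in the mean of the LPS times, beside 11.5%.

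At 96 h the Slc3a2 level in Het was -0.89, -0.39, -0.22 and -0.10 over the pool on the 4 arrays. In KO it was -1.79, -1.78 and -1.70. The groups do not overlap, and the KO arrays lie close together. The KO mean of -1.75 ± 0.05 (SD, n = 3) stood against a Het mean of -0.40 ± 0.35 (SD, n = 4). The difference was -1.35 ± 0.40 (SE; 95% interval -2.20 to -0.50), a 2.55-fold lower level, with a limma adjusted p of 0.0991. All 96 h arrays share the highest range of the authors' database numbers. A fit on that range alone keeps the same 96 h arrays and therefore the same difference. Only its estimate of spread changed, which gave a limma adjusted p of 0.00542. The adjusted p lay between 0.00012 and 0.278 over 13 alternatives, 8 of which passed the threshold. Those without the lowest range, on the highest range and on the compared groups keep the 96 h arrays unchanged. They cannot test the size of the difference.

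At 24 h the Slc3a2 level was 0.76 and -0.01 in Het and -0.65, -0.03 and -0.71 in KO. At 48 h it was 0.16 and -0.35 in Het and -0.44, -1.01 and -0.73 in KO. All KO arrays were again below all Het arrays, although the nearest arrays of the 2 genotypes all but met at 24 h. The same separation was held by 19.3%, 22.1% and 12.7% of all named genes at 24, 48 and 96 h, and by 3.63% at 0 h. The differences were -0.83 ± 0.48 at 24 h and -0.63 ± 0.48 at 48 h (SE, limma adjusted p = 0.42 and 0.997). By the channel fields, the 24 h array at -0.71 is Het, and the genotypes overlap at that time. With the conflicting labels taken as Het, the difference was -0.35 at 24 h. At 48 h it was -0.67, where only the KO array at -1.01 is left. By the titles, the difference averaged over the 3 LPS times was -0.94 ± 0.26 (SE; 95% interval -1.49 to -0.38; limma adjusted p = 0.0756). Without the lowest database range, which holds replicate 1 of each genotype at 24 h, Het keeps only 1 array at 24 h. The 24 h difference was then -0.35 and the averaged one -0.78. The median of all named genes lay at -0.49 at 24 h, -0.08 at 48 h and -0.07 at 96 h in this comparison. Relative to it, Slc3a2 lay at -0.34, -0.55 and -1.28.

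Before LPS, Slc3a2 was 0.46, 0.12 and -1.22 in Het and 0.37, -0.55 and -1.05 in KO, and the groups overlapped. The difference at 0 h was -0.20 ± 0.43 (SE, limma adjusted p = 0.832), and its sign turned without the lowest database range (0.42). Whether the genotypes differ more after LPS than before was tested as a difference of responses. At 96 h it was -1.15 ± 0.59 for Slc3a2 (SE; 95% interval -2.39 to 0.09; limma adjusted p = 0.425), so a larger gap after LPS was not shown.

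**Figure D1:**
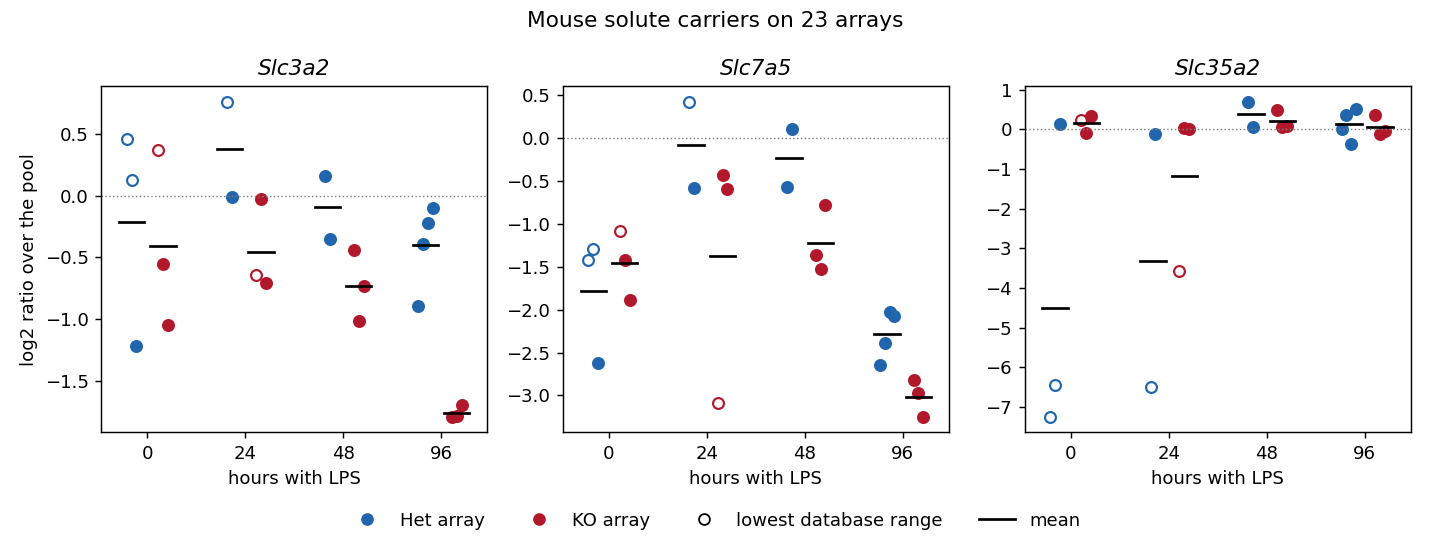
Levels of Slc3a2, Slc7a5 and Slc35a2 (log2 ratio over the pool) on 23 arrays by hours with LPS; each point is 1 array, open points are the arrays with the lowest database numbers, and bars are group means. The 3 KO arrays of Slc3a2 at 96 h sit between -1.79 and -1.70, below all 4 Het arrays, and the Slc35a2 values under -3 are all open points.

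Slc7a5 at 96 h was -2.64, -2.39, -2.03 and -2.08 in Het and -2.82, -2.97 and -3.25 in KO. The groups do not overlap, yet the gap between the nearest arrays is small beside the spread within each group. The difference was -0.73 ± 0.52 (SE; 95% interval -1.83 to 0.36; limma adjusted p = 0.993). At 48 h the level was -0.58 and 0.10 in Het and -1.36, -1.53 and -0.78 in KO, a difference of -0.98 ± 0.62 (SE, limma adjusted p = 0.997). At 24 h it was 0.42 and -0.59 in Het and -3.09, -0.44 and -0.60 in KO. The low KO value came from replicate 1, an array of the lowest database range, and without that range the 24 h difference of -1.29 became 0.07. Averaged over the LPS times, Slc7a5 lay at -1.002 ± 0.34 (SE; 95% interval -1.72 to -0.29; limma adjusted p = 0.208), and at -0.55 without the lowest range. Before LPS the sign was the other way, 0.32 ± 0.56 (SE, limma adjusted p = 0.785).

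The 2 features of Slc3a2 and of Slc7a5 gave like values on all arrays: the median gap between features was 0.23 and 0.12, and the largest 0.58 and 0.61. The genotype differences of these genes therefore do not rest on a single feature. Of the plasma cell markers, 5 of 6 measured genes had lower means in KO at 96 h (median -1.33). The array means of the list lay at -0.94 to -0.81 in KO and 0.95 to 1.12 in Het. Jchain, the joining chain of secreted antibodies, was the 1 of them past the threshold, at -7.41 ± 1.17 (SE, limma adjusted p = 0.000495), and weighed most in these means. Ell2, Xbp1, Mzb1 and Prdm1 lay at -1.74, -1.36, -1.30 and -0.91, and Sdc1 the other way at 1.26. Jchain differed as much before LPS, at -7.44 ± 1.25 at 0 h (SE, limma adjusted p = 0.00431), where Slc3a2 did not separate the genotypes. Markers of other cells that a splenic B cell culture could hold were also compared at 96 h. Of the T and NK cell list 2 of 2 measured genes, Cd3g and Gzma, had higher means in KO (median 0.62), and their array means lay at -1.72 to -0.33 in KO and -2.10 to -0.39 in Het. Of the myeloid list 2 of 2, Ncf1 and Tyrobp, had higher means in KO (median 0.83), with array means of 1.12 to 1.38 in KO and -0.16 to 0.80 in Het. None of these 4 was past the threshold, and the T and NK array means of the genotypes overlapped. Cd3g lay at 1.18 ± 0.97, Gzma at 0.05 ± 0.88 and Ncf1 at 0.19 ± 1.33 (SE, limma adjusted p = 0.993 for each). Tyrobp lay at 1.48 ± 0.58 (SE, limma adjusted p = 0.359). The part of the 3 marker lists in the transporter values was not tested.

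**Figure D2:**
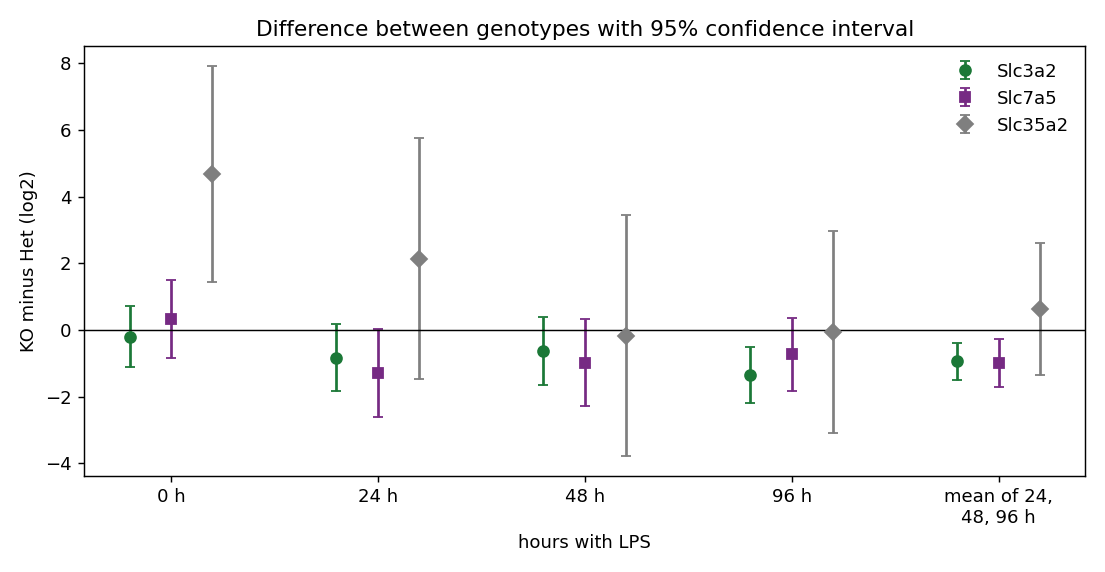
KO minus Het in log2 for the 3 mouse solute carriers at 0, 24, 48 and 96 h with LPS and as the mean of the 3 LPS times; bars are 95% confidence intervals from limma, and a value below 0 means a lower level in KO. The Slc3a2 interval lies below 0 at 96 h and averaged, that of Slc7a5 only averaged, and the Slc35a2 intervals are the widest at each time.

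Within each genotype, the LPS times were set against unstimulated cells. In Het, the Slc7a5 means were higher at 24 and 48 h than at 0 and 96 h. The level lay at -1.78 ± 0.73 at 0 h (SD, n = 3), -0.08 ± 0.71 at 24 h (SD, n = 2), -0.24 ± 0.48 at 48 h (SD, n = 2) and -2.28 ± 0.29 at 96 h (SD, n = 4). Against 0 h the change was 1.70 ± 0.62 at 24 h, a 3.24-fold higher level (SE, limma adjusted p = 0.0739), and 1.54 ± 0.62 at 48 h (SE, limma adjusted p = 0.132). Neither passed the threshold. Without the lowest database range the changes were 2.03 and 2.38, with only 1 Het array left at 0 h and only 1 at 24 h. At 96 h the change was -0.50 ± 0.52 (SE, limma adjusted p = 0.479) and turned to 0.33 without that range.

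In KO, Slc7a5 had means of -1.46 ± 0.40, -1.38 ± 1.49, -1.22 ± 0.40 and -3.01 ± 0.21 at 0, 24, 48 and 96 h (SD, n = 3 each). At 96 h it lay 1.55 ± 0.56 below 0 h in log2 (-1.55; SE; limma adjusted p = 0.141). Slc3a2 in KO at 96 h lay at -1.34 ± 0.43 against 0 h (SE, limma adjusted p = 0.113), while in Het it moved by -0.19 ± 0.40 (SE, limma adjusted p = 0.753). The median of all named genes also lay lower at 96 h than at 0 h, by -0.60 in KO and -0.42 in Het. Centring on named features in place of all features set these medians to 0.02 and 0.20, and with it Slc3a2 in Het at 96 h turned to 0.43. Relative to the median of all genes, Slc3a2 lay at -0.75 in KO and 0.23 in Het, and Slc7a5 at -0.95 and -0.08.

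Counts of members past the threshold were 0 of 3 in Het at 24 and 48 h (13.3% and 8.46% of all genes), 1 of 3 in Het at 96 h (25.7%), and 0 of 3 in KO at 24, 48 and 96 h (1.51%, 1.51% and 0.906%). At an unadjusted p under 0.05 in limma the Het counts were 1, 2 and 1, beside 31.1%, 24.5% and 40.8% of all genes, and the KO counts 0, 0 and 2, beside 12.4%, 8.16% and 24.5%. The difference of responses between genotypes gave 0 of 3 members at 24, 48 and 96 h, beside 0% of all genes by limma at each time. At an unadjusted p under 0.05 it gave 0, 0 and 1, beside 7.85%, 8.46% and 12.7%. For Slc7a5 at 96 h that difference was -1.05 ± 0.76 (SE; 95% interval -2.65 to 0.55; limma adjusted p = 0.629).

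The 1 called member was Slc35a2, the UDP-galactose carrier of the Golgi, in Het at 96 h against 0 h. Its level at 0 h was -7.25, -6.44 and 0.14 on the 3 Het arrays, and 0.02, 0.36, -0.36 and 0.52 on the 4 arrays at 96 h. The very low values came from replicates 1 and 2, and the third array lay within the range of the 96 h arrays. The fitted change was 4.65 ± 1.44 (SE, limma adjusted p = 0.0247). Without the lowest database range, which holds replicates 1 and 2, it was -0.00175, and the call was lost. The same 2 arrays set the difference between KO and Het at 0 h, 4.69 ± 1.54 (SE, limma adjusted p = 0.149), since the KO arrays there lay at 0.25, -0.09 and 0.35.

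A like low value appeared on Het 24 h replicate 1 (-6.51), and on KO 24 h replicate 1 the mean of -3.58 joined 2 features that lay 7.31 apart. On all other arrays, in both genotypes and at all times, Slc35a2 stayed between -0.36 and 0.70. On Het 0 h replicates 1 and 2 and Het 24 h replicate 1, 13.3% to 17.4% of all features lay below -5, against 0.0569% to 10.4% on the other 20 arrays. The part of this tail in the Slc35a2 values was not tested. Slc35a2 did not separate the genotypes at 48 h (-0.17 ± 1.72, SE, limma adjusted p = 0.997) or 96 h (-0.06 ± 1.44, SE, limma adjusted p = 0.993), with an error from the 1 spread that the fit takes over all times.

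Other genes that work with these carriers were measured 1 to 3 a list in the mouse. Atf4, the regulator of the amino acid stress response that drives many amino acid carriers, fell in Het at 96 h against 0 h by 1.11 on the log2 scale (limma adjusted p = 0.0374). It lay at -0.51 in KO against Het at 96 h (limma adjusted p = 0.993). Rheb, the GTPase that activates mTORC1, fell in Het at 96 h against 0 h by 2.02 (limma adjusted p = 0.0101). Ldha, the lactate-forming dehydrogenase, rose in Het at 24 h against 0 h by 1.68 (limma adjusted p = 0.0125). At 48 h it rose by 1.55 in Het and 1.64 in KO (limma adjusted p = 0.0311 and 0.0342). In KO at 24 h it lay at 0.93 (limma adjusted p = 0.321). Nars, the asparaginyl-tRNA synthetase, lay 5.84 above 0 h at 24 h in Het (limma adjusted p = 0.00943), where Slc35a2 lay at 1.21 ± 1.72 (SE, limma adjusted p = 0.729). In KO against Het at 0 h, Nars lay at 5.53 and Gbe1, the glycogen branching enzyme, at 2.57 (limma adjusted p = 0.0109 and 0.0348). All comparisons here with Het at 0 h include its replicates 1 and 2, with 13.3% and 15.6% of features below -5. On the Het arrays at 0 h, Nars ran from -8.28 to -1.82 and Gbe1 from -5.10 to -2.15. The part of this tail in the list genes was not tested. St6gal1, a Golgi sialyltransferase that acts on galactose-ended glycans, lay at -0.89 in KO against Het at 96 h (limma adjusted p = 0.462). Tk1, the thymidine kinase of dividing cells, rose in Het against 0 h by 3.32 at 24 h and 3.04 at 48 h (limma adjusted p = 0.00943 and 0.0107), the times of the higher Slc7a5 means. Gbe1 rose in Het at 24 h by 3.07 (limma adjusted p = 0.0103). Mt2, a metallothionein that binds zinc, lay 4.32 higher in KO than in Het at 0 h (limma adjusted p = 0.0134). In KO at 24 h against 0 h, Mt2 lay at -4.70 (limma adjusted p = 0.00725). The other list genes measured were Ada, Aprt, Fth1, Abca7 and Abcb1b, of which Abca7, a lipid carrier of the ABC family, fell in Het at 96 h by 0.96 (limma adjusted p = 0.0491). In that comparison 25.7% of all named genes were past the threshold, and the median of all named genes lay at -0.42. Centring on named features set this median to 0.20. The part of this shift in the falls of Atf4, Rheb and Abca7 was not tested. Between the genotypes at 96 h these lists held no gene past the threshold in limma, with 1, St6gal1, at an unadjusted p under 0.05.

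OCI-Ly7 cells with and without the IRF4 vector were compared to see which RNAs change when IRF4 is supplied. No solute carrier was past the threshold over 4 arrays (limma, 0 of 49, beside 5 of 4604 named genes or 0.109%). At an unadjusted p under 0.05, 9 members were lower and 2 higher, where 16% of all genes were lower and 7.91% higher. On all 4 arrays 6 members lay below 0 (21% of all genes) and 7 above 0 (17%). The mean was below 0 for 30 of 49 members, or 61.2%, against 56.7% of all genes, and the median over members was -0.31 against -0.14. In all, 22.4% of members were at an unadjusted p under 0.05 against 23.9% of all genes, so the members were not called more often than the background, and the groups and genes below are described on 4 arrays.

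**Figure D3:**
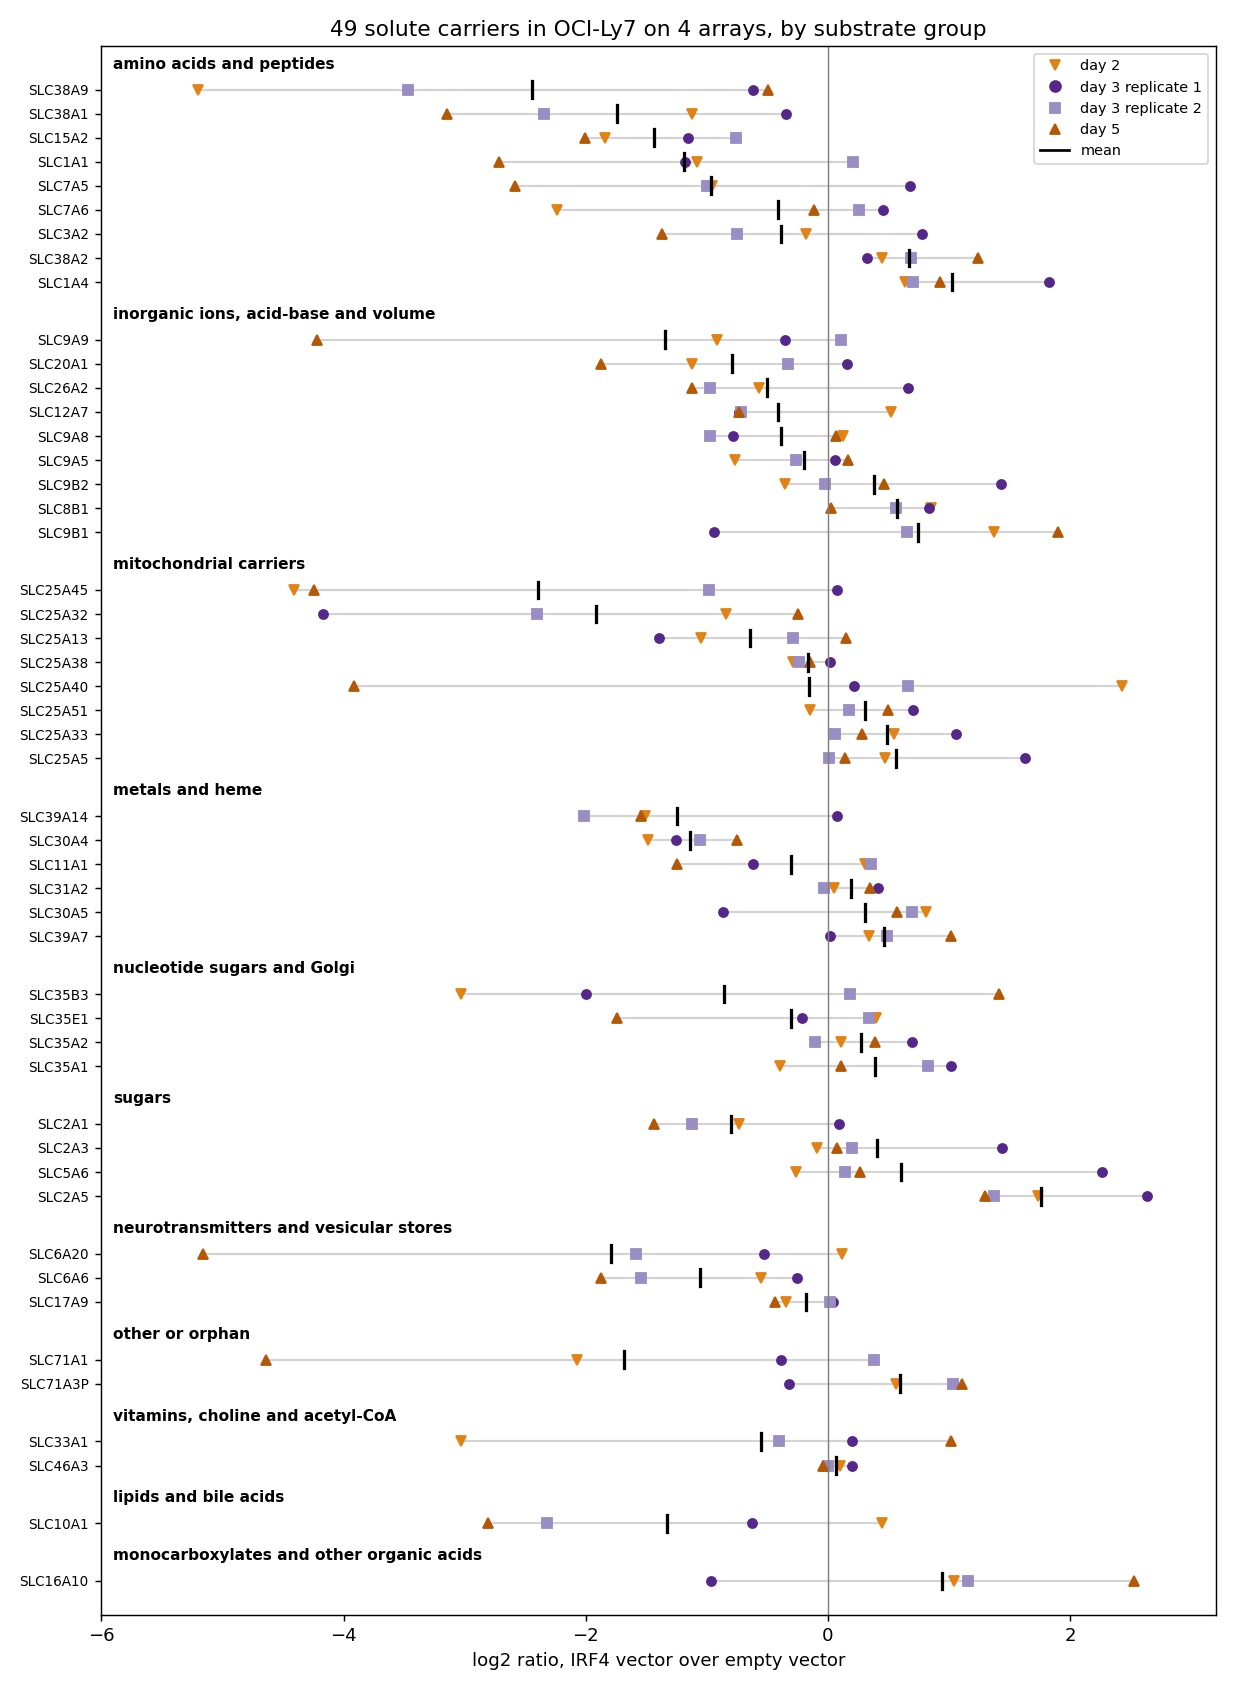
Log2 ratio of IRF4 vector over empty vector for the 49 human solute carriers on the 4 OCI-Ly7 arrays, by substrate group; symbols are arrays, grey lines join the lowest and highest array, and black bars are means. SLC2A5 and SLC1A4 lie above 0 on all arrays, SLC15A2, SLC30A4 and SLC38A1 below 0 on all arrays, and most other members straddle 0.

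Amino acid and peptide carriers, 9 members, had 7 means below 0 and a median of -0.96, and 3 lay below 0 on all arrays. SLC15A2, a proton-coupled peptide carrier, was -1.84 on day 2, -1.16 and -0.76 on day 3 and -2.01 on day 5. SLC38A1, a sodium-coupled glutamine carrier, was -1.13, -0.35, -2.34 and -3.14 in the same order. SLC38A9, the lysosomal arginine sensor of mTORC1, was -5.20, -0.62, -3.47 and -0.49. All of these values are below 0, but those of SLC38A9 differ widely between arrays. The means were -1.44 ± 0.32 for SLC15A2 (SE, limma adjusted p = 0.13), -1.74 ± 0.50 for SLC38A1 (0.147) and -2.45 ± 0.84 for SLC38A9 (0.173). SLC1A1, a glutamate carrier, had a mean of -1.19 ± 0.49 (SE, limma adjusted p = 0.208), with 1 array above 0.

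Both chains of human CD98 lay above 0 on 1 array and below 0 on the other 3. SLC7A5 was 0.68 on day 3 replicate 1 and -0.958, -0.998 and -2.58 on day 2, day 3 replicate 2 and day 5. SLC3A2 was 0.77 on day 3 replicate 1 and -0.19, -0.75 and -1.37 on the others. Day 3 replicate 1 was also the array on which the IRF4 mean was above 0, and this was not particular to the pair. On it 21 of 49 members lay below 0, against 28 on day 2, 24 on day 3 replicate 2 and 26 on day 5. SLC2A1, SLC39A14 and SLC25A45 were likewise above 0 only there, and so were SLC20A1, SLC25A38 and SLC26A2, named after their values were seen. A link of the pair to the IRF4 level was not tested. The means were -0.96 ± 0.53 for SLC7A5 (SE; 95% interval -2.25 to 0.32; limma adjusted p = 0.291) and -0.38 ± 0.40 for SLC3A2 (SE; 95% interval -1.36 to 0.60; limma adjusted p = 0.549). Without day 3 replicate 1 they were -1.51 and -0.77 (limma adjusted p = 0.181 and 0.232), the lowest means with any 1 array left out. At the other end of that range they were -0.43 for SLC7A5 and -0.055 for SLC3A2. The highest limma adjusted p with 1 array left out was 0.624 and 0.952. Were the ratio to run the other way, both means would lie above 0. The human and mouse values of the pair were not tested against each other.

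On the other side of 0 in this group were SLC1A4 and SLC38A2. SLC1A4, a carrier of alanine, serine and cysteine, was 0.63 on day 2, 1.82 and 0.71 on day 3 and 0.93 on day 5, with a mean of 1.02 ± 0.31 (SE; 95% interval 0.26 to 1.78; limma adjusted p = 0.157). SLC38A2, a glutamine carrier that rises when amino acids are scarce, was 0.45, 0.32, 0.69 and 1.24, with a mean of 0.67 ± 0.28 (SE, limma adjusted p = 0.214). Both lay above 0 on 4 of 4 arrays, so the neutral amino acid carriers did not share 1 direction.

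The sugar families, 4 members, had 3 means above 0 and a median of 0.50. SLC2A5, the fructose carrier GLUT5, was 1.74 on day 2, 2.64 and 1.37 on day 3 and 1.30 on day 5. It had the highest mean of the 49 members, 1.76 ± 0.33 (SE; 95% interval 0.97 to 2.56), a 3.39-fold higher level, with a limma adjusted p of 0.119. Its 3 features had means of 2.86, 2.21 and 0.21, and the lowest of them ran from 1.67 on day 2 to -1.95 on day 5. The basal glucose carrier SLC2A1 (GLUT1) was -0.73 on day 2, 0.09 and -1.13 on day 3 and -1.44 on day 5, with a mean of -0.80 ± 0.34 (SE, limma adjusted p = 0.214). SLC2A3 (GLUT3), another glucose carrier, had a mean of 0.40 ± 0.35 (SE, limma adjusted p = 0.47). SLC5A6, which carries vitamins such as biotin although its family holds the sodium-coupled sugar carriers, had a mean of 0.60 ± 0.47 (SE, limma adjusted p = 0.434) and rested on 2.27 on day 3 replicate 1.

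Metal carriers, 6 members, were split 3 to 3 around 0 with a median of -0.05. SLC30A4, which moves zinc out of the cytosol, was -1.48 on day 2, -1.26 and -1.06 on day 3 and -0.75 on day 5, with a mean of -1.14 ± 0.27 (SE, limma adjusted p = 0.13). These 4 values lie close together, but they average 3 features with means of -3.53, -0.39 and 0.51, and the median of features gave -0.19. SLC39A14, which brings zinc and iron in, was 0.08 on day 3 replicate 1 and -1.51 to -2.01 on the others, with a mean of -1.25 ± 0.40 (SE, limma adjusted p = 0.163). SLC39A7, the zinc channel of the endoplasmic reticulum, lay above 0 on all 4 arrays, from 0.02 to 1.01, with a mean of 0.47 ± 0.29 (SE, limma adjusted p = 0.338).

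Mitochondrial carriers, 8 members, had 5 means below 0 and a median of -0.16. SLC25A32, a folate and flavin carrier, was -0.84 on day 2, -4.17 and -2.41 on day 3 and -0.25 on day 5, with a mean of -1.92 ± 0.66 (SE, limma adjusted p = 0.173). SLC25A45 was near 0 on day 3 replicate 1 (0.07) and at -0.99 to -4.41 on the others, with a mean of -2.39 ± 0.83 (SE, limma adjusted p = 0.175). In the other direction SLC25A5, an ADP/ATP carrier, and SLC25A33, a pyrimidine nucleotide carrier, lay above 0 on all 4 arrays. Their means were 0.56 ± 0.36 and 0.48 ± 0.29 (SE, limma adjusted p = 0.352 and 0.326). SLC25A5 had 5 features, whose means lay between 0.37 and 0.82.

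Ion and acid-base carriers, 9 members, had 6 means below 0, a median of -0.39, and none at an unadjusted p under 0.05 in limma. SLC8B1, the sodium-calcium exchanger of mitochondria, lay above 0 on all 4 arrays, from 0.02 to 0.85, with a mean of 0.57 ± 0.28 (SE, limma adjusted p = 0.259). SLC9B1, a sodium-proton exchanger, had a mean of 0.75 ± 0.50 (SE, limma adjusted p = 0.371), with -0.94 on day 3 replicate 1. The 3 carriers of the neurotransmitter and vesicular group all had means below 0. SLC6A6, the taurine carrier, was -0.55 on day 2, -0.26 and -1.54 on day 3 and -1.88 on day 5, with a mean of -1.06 ± 0.37 (SE, limma adjusted p = 0.173). SLC6A20, a proline carrier, ran from 0.12 on day 2 to -5.17 on day 5, with a mean of -1.79 ± 0.86 (SE, limma adjusted p = 0.251).

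Nucleotide sugar carriers, 4 members, had 2 means on each side of 0 and a median of -0.02. SLC35A2 was 0.11 on day 2, 0.69 and -0.11 on day 3 and 0.39 on day 5, with a mean of 0.27 ± 0.27 (SE; 95% interval -0.40 to 0.94; limma adjusted p = 0.535). SLC10A1, a bile acid carrier best known from the liver, had a mean of -1.33 ± 0.58 (SE, limma adjusted p = 0.224). SLC16A10, which carries aromatic amino acids although its family is named for monocarboxylates, had a mean of 0.94 ± 0.56 (SE, limma adjusted p = 0.328), with 2.53 on day 5 and -0.97 on day 3 replicate 1. SLC71A3P, a pseudogene symbol whose feature could also bind RNA of a related gene, had a mean of 0.60 ± 0.34 (SE, limma adjusted p = 0.306). The 22 members that the naming rule leaves out all had arrays on both sides of 0, as the plot by substrate group shows.

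Whether the ratio moved with the day was asked by a slope over the 4 arrays. No member and no other gene was past the threshold in limma (0 of 49, 0% of 4604). At an unadjusted p under 0.05 there were 8 members, beside 12.3% of all genes, and 26 of 49 slopes were below 0. SLC6A20 moved by -1.82 ± 0.31 a day (SE, limma adjusted p = 0.14). SLC25A40, a glutathione carrier of mitochondria named after its values were seen, went from 2.43 on day 2 to 0.22 and 0.66 on day 3 and -3.92 on day 5, a slope of -2.13 ± 0.26 a day (SE, limma adjusted p = 0.14). Days 2 and 5 have 1 array each, so such a slope rests on single arrays.

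Features of the same member often disagreed. Of 25 solute carriers with 2 or more features, 13 had feature means on both sides of 0. SLC6A6 held features with means from -2.63 to 1.23, SLC38A1 from -3.68 to 0.27, and SLC35B3, a carrier of the sulfate donor PAPS, from -2.71 to 0.92. Human arrays correlated with each other at 0.308 to 0.462 over all features, a description with no test. The gene value of such a member is a mean over features that disagree.

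**Figure D4:**
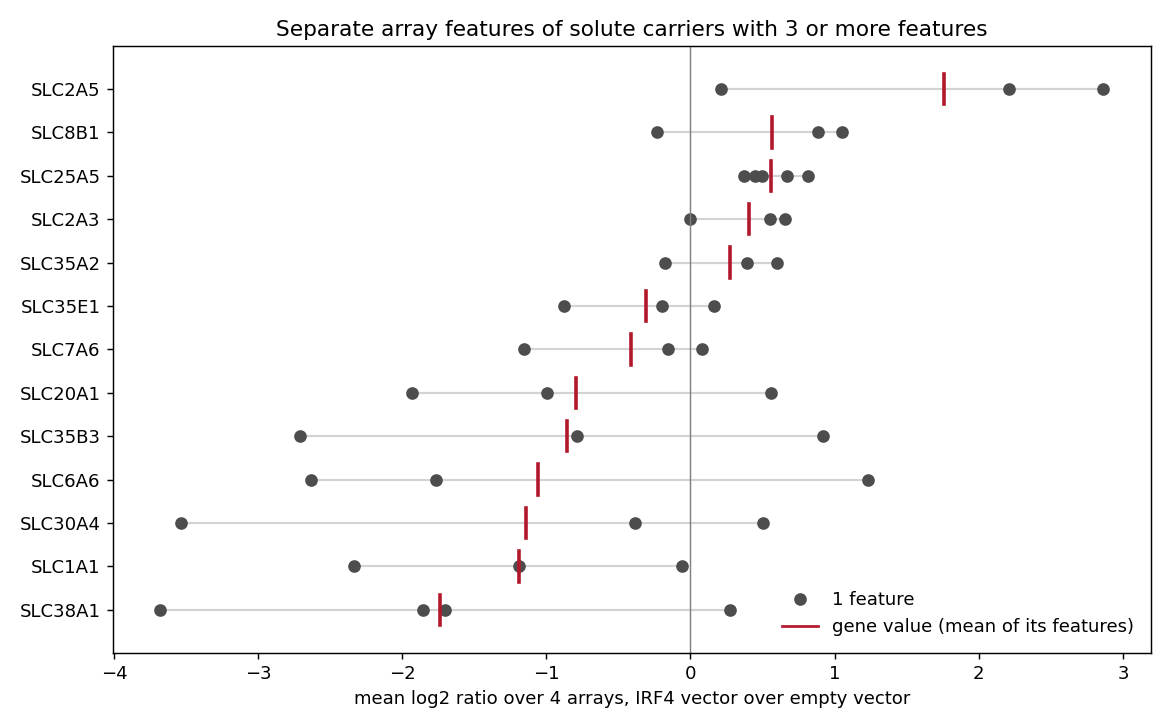
Mean log2 ratio over the 4 OCI-Ly7 arrays of each array feature (points) for the 13 solute carriers with 3 or more features; red bars are the gene values. For 10 of the 13 the features lie on both sides of 0, while those of SLC25A5 lie between 0.37 and 0.82.

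Genes that work beside the carriers were described in the same way. Of 9 genes of mTORC1 and amino acid sensing, 8 had means above 0 and 7 lay above 0 on all 4 arrays, which 17% of all genes did, and the median was 0.57. The other, NPRL3, lay below 0 on all 4 arrays and had the largest shift of the list. Its mean was -2.74 ± 1.18 (SE, limma adjusted p = 0.221), with -7.62 on day 5. None of the 9 was past the threshold. RRAGA, a Rag GTPase that brings mTORC1 to the lysosome, had a mean of 0.82 ± 0.30 (SE, limma adjusted p = 0.183), and LAMTOR3, a part of its anchor, 0.92 ± 0.26 (0.144). These 2 were chosen after their values were seen. Of 8 aminoacyl-tRNA synthetases 5 had means above 0 (median 0.42), of 5 lactate and transporter chaperone genes 4 (median 0.52), and of 8 genes of the amino acid stress response 6 (median 0.04), none past the threshold. The ABC transporters, the other large family of membrane carriers, had 5 of 10 means above 0, a median of -0.02 and none past the threshold in limma, with 1 at an unadjusted p under 0.05. Plasma cell markers had 5 of 8 means above 0 (median 1.95), and TNFRSF17, the receptor BCMA, was the 1 gene of these lists past the threshold, at 3.36 (limma adjusted p = 0.0455). Means above 0 counted 2 of 6 for B cell, 4 of 16 for T and NK cell and 2 of 7 for myeloid markers, with medians of -0.43, -0.30 and -0.30.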

How the data were processed

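The deposited tables hold 1 log2 ratio per feature and array, as the authors computed them; the scanning, background and normalization steps, the log base and the direction are not stated in these sources, and base 2 and Cy5 over Cy3 were assumed. Each array was centred on the median of its features, and features with 1 symbol (559 of 12292 mouse, 10169 of 15246 human) were averaged per gene. No intensities or depths were used, so precision rests on the number of arrays.

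limma 3.58.1 in R 4.3.3 fitted the 23 mouse arrays together with 1 mean for each genotype at each time, and the mean and the slope per day of the 4 human arrays. P-values are 2-sided, adjusted by Benjamini-Hochberg over all named genes within a comparison, with a threshold of 0.05. The fit was tested on simulated data with independent normal noise of 1 spread for all genes. Such data hold no low tail, database ranges or conflicting labels, so the test does not bear on these. Genotypes came from array titles. Members and lists were chosen with earlier results of these data known. Named were the 3 mouse genes, the 12 human members at each end of the moderated t, the most shifted member per substrate group among those on 1 side of 0, human SLC3A2, SLC7A5 and SLC35A2, and list genes past the threshold or, in the mouse, of lists with 5 or fewer measured. Alternatives were other centring, quantile normalization, feature medians, extreme values as missing, array weights, a replicate block, database ranges, the conflicting labels, and each array left out. Same-numbered arrays were not paired by the labels, and 5 of 10 same-number pairs had deviations correlated over 0.1 (-0.17 to 0.51).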

Additional observations from a re-analysis of the deposited data

How the results depend on the processing

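In OCI-Ly7, the count of solute carriers past the threshold was 0, and became 2 with quantile normalization, 5 with array weights and 2 on the lower database range alone. On the higher range alone SLC35A2 turned to -0.000833 and SLC5A6 to -0.0615. Leaving out 1 array gave 0 to 5 members with a slope past the threshold.

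In the mouse, the KO minus Het count at 0 h became 1 with array weights. At 96 h it became 1 with centring on named features, without centring, with quantile normalization, array weights or the database range as a factor, without the lowest range, on the highest range alone and on the compared groups alone. The mean of the LPS times also gave 1 under these settings, except the highest range alone, which could not be fitted. Against 0 h, Het at 24 h gave 1 with named centring, without centring and without the lowest range. Het at 48 h gave 1 with named centring, array weights, the conflicting labels taken as Het, without the lowest range and on the highest range. Het at 96 h gave 0 with quantile normalization, values beyond 6 missing, the range as a factor, without the lowest range, on the highest range and on the compared groups. KO at 96 h gave 1 with named centring, without the lowest range and on the compared groups, and 2 with quantile normalization and with array weights. The difference of responses gave 1 at 48 h with array weights, and 1 at 96 h with named centring and with array weights. Without the lowest range, Het keeps 1 array at 0 h and 1 at 24 h. On the highest range alone, Het keeps 1 at 0 h and 1 at 48 h. Counts under these settings that use those groups rest on single arrays. With 1 array left out, each of these mouse counts ranged from 0 to 1. Of all named genes, KO minus Het at 96 h called 9, with 7 to 42 under the other settings and 6 to 13 with 1 array left out. Het at 96 h called 85, with 2 to 98 and 35 to 172. The OCI-Ly7 mean called 5, with 0 to 342 and 0 to 1.

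Signs turned as follows. In KO minus Het at 0 h, Slc3a2 was 0.417 without the lowest range and 0.169 on the highest, Slc7a5 -0.272 with quantile normalization, and Slc35a2 -0.00425 without the lowest range. At 24 h Slc7a5 was 0.0698 without the lowest range, and at 48 h Slc35a2 was 0.015 on the highest. At 96 h Slc35a2 was 0.0848 with named centring, and its mean over LPS times was -0.0586 with quantile normalization and -0.0296 without the lowest range. In Het at 24 h against 0 h, Slc35a2 was -0.106 with values beyond 6 missing and -0.251 without the lowest range. In Het at 48 h Slc3a2 was -0.182 with array weights and -0.130 with the conflicting labels as Het, and Slc35a2 -0.068 on the highest range. In Het at 96 h Slc3a2 was 0.431 with named centring, 0.121 without centring, 0.512 with the range as a factor and 0.814 without the lowest range or on the highest; Slc7a5 was 0.119 with named centring and 0.333 without the lowest range or on the highest, where Slc35a2 was -0.00175. In KO at 96 h Slc35a2 was 0.512 with named centring and 0.0573 without centring. The causes were not tested.

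With 1 array left out, KO minus Het at 0 h ranged from -0.701 to 0.137 for Slc3a2 and -0.0996 to 0.559 for Slc7a5. For Slc35a2 it ranged from -1.06 to 5.33 at 24 h, -0.489 to 0.147 at 48 h, -0.229 to 0.063 at 96 h and -0.431 to 1.70 over LPS times. Against 0 h in Het, Slc35a2 ranged from -1.99 to 4.402 at 24 h, and Slc3a2 from -0.387 to 0.451 at 48 h and -0.694 to 0.144 at 96 h.

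The fit with the replicate number as a block gave Slc3a2 -1.25 at 96 h (limma adjusted p = 0.278) and -0.82 over LPS times (0.269). The block turned Slc35a2 at 96 h to 0.063 and Slc3a2 in Het at 48 h to -0.0139, and it changed no call of a member. Array number and unknown background limit all values.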

Other observations

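Other mouse solute carriers, outside the rule that chose the members and named after their values were seen, gave these values. Slc33a1, the acetyl-CoA carrier of the endoplasmic reticulum, lay at 0.31 to 0.45 in Het and -1.003 to -0.356 in KO at 96 h, a difference of -1.09 ± 0.36 (SE, limma adjusted p = 0.174). Slc1a5, a glutamine carrier, fell in Het at 96 h against 0 h by 1.12 on the log2 scale (limma adjusted p = 0.0488). There the median of all named genes lay at -0.42, and 25.7% of them were past the threshold. Slc1a4, a neutral amino acid carrier, and Slc30a5, a zinc carrier, lay at -0.36 and 0.48 in KO against Het at 96 h, neither past the threshold.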
